A study of Drosophila melanogaster with 52 samples.

Results

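The neuroblast temporal identity genes described here are hb, Kr, nub, pdm2, cas, svp, chinmo, Imp and Syp, taken by symbol from a table of 16502 genes in larval tissue of the fruit fly Drosophila melanogaster. All 9 were in the table, and 8 passed the filter on low values, with hb below it. The genes hb, cas, svp and Syp lie on chromosome arm 3R, nub, pdm2 and chinmo on 2L, Kr on 2R and Imp on X. The measured material was polyadenylated RNA of larvae at the third instar, from their imaginal discs together with their brains, in 10 libraries. They were labelled WT (3 libraries, wild type), SppsKO (4 libraries) and PhoKO (3 libraries). SppsKO animals are described in the design text as maternal-zygotic mutants of Spps, and PhoKO animals as zygotic mutants of pho, whose mothers still supplied the gene product. The labels of these libraries name no allele, no background stock and no sex, and stocks were kept at 25 °C. Whether the libraries of a group are separate collections of animals is not said, and the spread behind each p-value may therefore be technical.

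Neuroblasts are the stem cells of the insect nervous system, and they make different neurons in a fixed order by switching transcription factors on and off in turn. In the embryonic ventral nerve cord the order is Hunchback, Krüppel, the POU factors Nubbin and Pdm2, and Castor, with the nuclear receptor Seven-up closing the Hunchback window. In larval neuroblasts the RNA-binding proteins Imp and Syncrip take over as opposing timers, early and late, and act on chinmo, a BTB zinc finger gene of early-born neurons. Several of these genes also act outside neuroblasts, nub in the wing pouch and svp in photoreceptors for example, and discs and brains were measured together here. Spps and Pho are DNA-binding proteins that recruit Polycomb group complexes, which hold developmental genes in a silent state. The comparison asks whether transcript levels of temporal genes differ when a recruiter is missing.

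The targeted genes followed the labels. Spps stood between 0.877 and 1.04 FPKM (fragments per kilobase of transcript, scaled to library size) in SppsKO and between 12.2 and 13.8 in the other groups, and pho between 15.3 and 18.7 FPKM in PhoKO and between 53.7 and 67.8 in the others. FPKM is not a count, and total depth is unknown, but the step size of values under 0.3 FPKM put WT 3 at 59.9% and PhoKO 1 at 63.7% of the depth of WT 1, with the other libraries between 87.1% and 106%. SppsKO 4 stood apart from its group: of 9748 tested genes 210 had an outlying low value in it and 299 an outlying high one by Dixon's test of the gap within the group, against at most 94 on either side for any other SppsKO library. Its Pearson correlations with the rest of its group, on the log2 scale, were 0.9708 to 0.9735. Those among WT libraries were 0.9636 to 0.9784 and those among PhoKO libraries 0.9616 to 0.9694. SppsKO 1, SppsKO 2 and SppsKO 3 were unusually alike, at 0.9858 to 0.995, and the Dixon counts depend on that closeness too. Neuroblast markers were present in every group, with the defining genes dpn (deadpan, 4.72 FPKM in WT), ase, wor, mira and insc all tested. Neuron, glia, wing pouch and eye disc markers were present too, and the 7 germline markers were all below the filter.

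In WT the temporal genes covered a wide range of levels. Syp was the highest at 245 ± 11.4 FPKM (SD, n = 3) and hb the lowest at 0.521 ± 0.0508 (SD, n = 3). Between them, in falling order, stood nub at 27.4 ± 1.84, Imp at 21.1 ± 1.28, cas at 16.4 ± 2.67, chinmo at 12.8 ± 1.74, svp at 11.5 ± 0.797, pdm2 at 5.15 ± 0.523 and Kr at 1.59 ± 0.560 FPKM (SD, n = 3 for each). The WT ranges of cas and chinmo overlapped, with cas the higher in each of the 3 libraries. Those of chinmo and svp overlapped too, and svp was the higher in WT 2. The ranges of all other neighbours in the order were separate. The late timer Syp stood 10.8 to 12.8 times above the early timer Imp in WT. The POU gene nub stood 5.07 to 5.47 times above its neighbour and paralog pdm2.

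**Figure D1:**
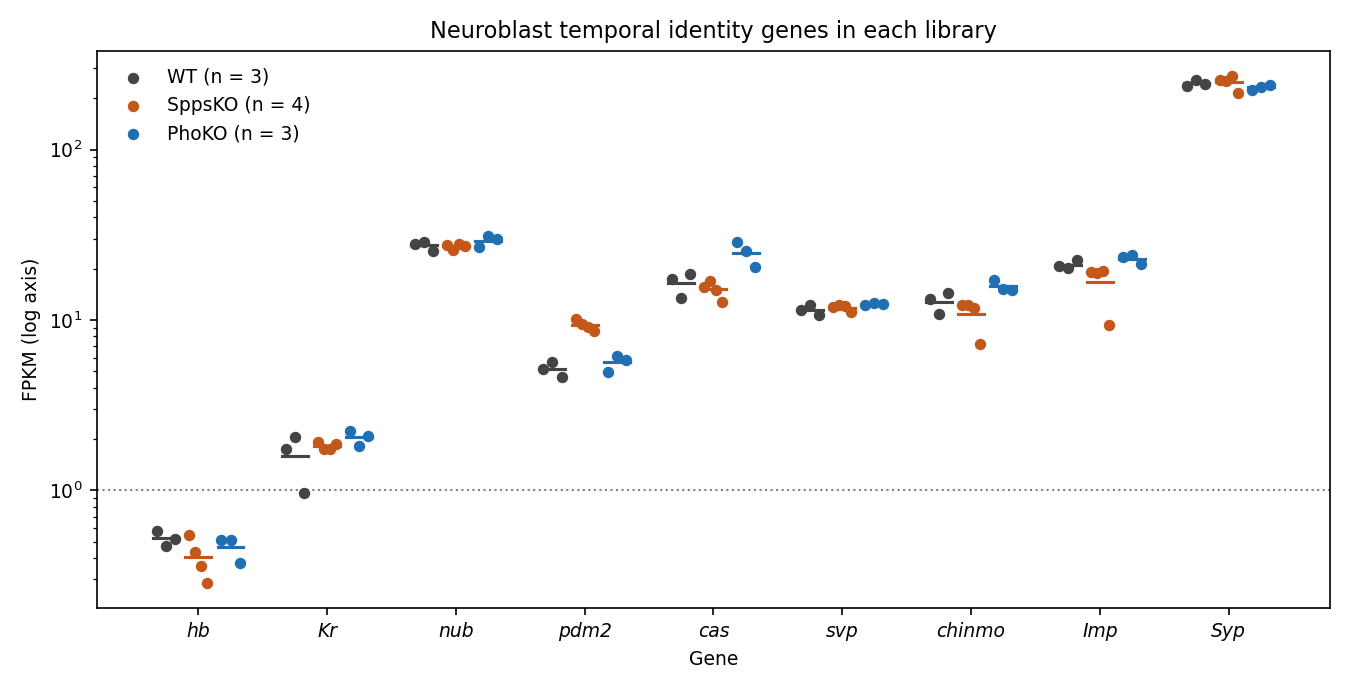
FPKM (log axis) of the 9 temporal identity genes in each of 10 libraries, with points for libraries, short bars for group means and a dotted line at 1 FPKM. The 4 SppsKO libraries stand above all others for pdm2, the 3 PhoKO libraries above all others for cas, and 1 SppsKO library lies far below its group for Imp and chinmo.

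In SppsKO pdm2 was higher than in WT, and no other temporal gene was called. The POU factor gene pdm2, which acts with nub between Kr and cas, stood at 5.12, 5.68 and 4.64 FPKM in WT and at 10.1, 9.47, 9.12 and 8.59 FPKM in SppsKO. Every SppsKO library lay above every WT and PhoKO library. Such separation was common: 24.0% of all tested genes had SppsKO and WT groups that did not overlap. The SppsKO mean was 181% of the WT mean, a log2 difference of 0.75 (SE 0.09, limma adjusted p = 0.000629), with differences taken throughout as log2(FPKM + 1). The call held under all 22 alternatives tried, leaving out each library among them. Of the 8 temporal genes tested 1 rose and 0 fell by limma, and 1 had an unadjusted p under 0.05. Over all 9748 genes 8.18% were called, 3.92% higher and 4.26% lower, so 1 call among 8 is near the background.

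The paralog nub did not move with pdm2. It stood at 28.0, 28.8 and 25.3 FPKM in WT and at 27.4, 25.9, 27.8 and 27.1 FPKM in SppsKO, with overlapping groups. The log2 difference was -0.02 (95% interval -0.15 to 0.12, limma adjusted p = 0.895), and its sign turned under several alternatives. The ratio of nub to pdm2 was 2.72, 2.73, 3.05 and 3.15 in the SppsKO libraries, below the lowest ratio of 5.03 in WT and PhoKO. Markers of the wing pouch, a main site of nub, summed over 8 genes, ranged from 295 to 306 FPKM in WT and from 292 to 317 in SppsKO. Of those 8, 1 fell in SppsKO and 0 rose, the zinc finger gene rn (-0.25, SE 0.05, limma adjusted p = 0.0129, and 0.0509 without WT 1). Of 11 neuroblast markers 0 were called in SppsKO, with sums of 424 to 431 FPKM in WT and 376 to 433 in SppsKO. Blood cell and ring gland markers were lower in SppsKO: 6 of 9 and 3 of 7 fell and 0 rose, beside 4.26% of all tested genes called lower, with sums of 205 to 330 FPKM in WT and 84.4 to 138 in SppsKO for blood, and of 337 to 367 and 270 to 338 for ring gland. These counts rest on few libraries: without both shallow ones 2 and 1 fell, and without single libraries 2 to 7 and 1 to 4, with 2 blood cell markers without WT 1, SppsKO 1, SppsKO 2 or SppsKO 3 and 1 ring gland marker when WT 2, WT 3, SppsKO 1, SppsKO 2, SppsKO 3 or PhoKO 3 was left out. None of these markers was at 0 in every library, and their part in the pdm2 difference was not tested. In bulk tissue, fewer cells of a type and less RNA per cell cannot be told apart.

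In PhoKO cas was higher than in WT. Castor, the zinc finger factor late in the embryonic series, is also used by larval neuroblasts. Its gene stood at 17.3, 13.5 and 18.6 FPKM in WT and at 28.6, 25.5 and 20.3 FPKM in PhoKO. All PhoKO libraries lay above all WT libraries, and PhoKO 3 was only just above WT 3. Among all tested genes 28.2% had PhoKO and WT groups that did not overlap. The PhoKO mean was 151% of the WT mean (log2 difference 0.56, SE 0.15, limma adjusted p = 0.0481). This call is at the threshold: it held under 9 of 22 alternatives and when 3 of the 10 libraries were left out singly, with log2 differences between 0.43 and 0.69 and adjusted p between 0.0106 and 0.139. It ended without WT 1, WT 2, PhoKO 1 or PhoKO 2 (adjusted p = 0.0962, 0.117, 0.139 and 0.133), and also without SppsKO 1, SppsKO 2 or SppsKO 3. Of the 8 temporal genes tested 1 rose and 0 fell in PhoKO by limma, and 1 had an unadjusted p under 0.05. Of all genes 9.66% were called, 4.59% higher and 5.08% lower, so this count too is near the background.

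Against SppsKO, cas was higher in PhoKO and pdm2 lower. In SppsKO cas stood at 15.7, 16.9, 15.1 and 12.8 FPKM, all below the lowest PhoKO value of 20.3. The log2 difference of PhoKO from SppsKO was 0.67 (SE 0.14, limma adjusted p = 0.0145), and the call ended when PhoKO 1 (adjusted p = 0.0546) or PhoKO 2 (adjusted p = 0.0542) was left out. For pdm2 the PhoKO libraries stood at 4.97, 6.18 and 5.83 FPKM, of which 2 were above the WT range. The direct difference of pdm2 was -0.63 (SE 0.09, limma adjusted p = 0.00135) and was called under all 22 alternatives. So the mutants differed from each other in both genes by a test of the difference itself. Of the 8 temporal genes 1 was called higher and 1 lower, and of all genes 14.4% were called, 7.24% higher and 7.12% lower. In 4 temporal genes (cas, svp, chinmo and Imp) all PhoKO libraries lay above all SppsKO libraries, and in 1 (pdm2) below, where 31.4% of all tested genes had groups that did not overlap. The WT libraries are shared by both comparisons with WT.

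**Figure D2:**
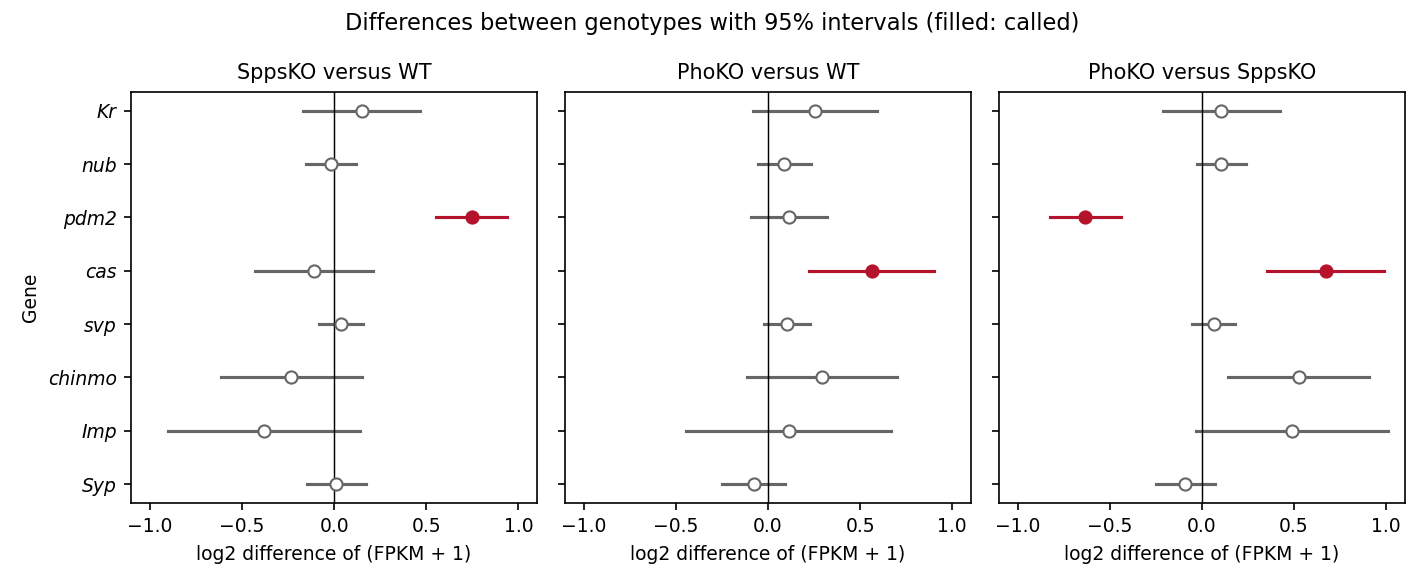
Log2 differences of (FPKM + 1) between genotypes for the 8 tested temporal genes, with 95% intervals from limma; filled red points are called at an adjusted p under 0.05 over 9748 genes. The gene pdm2 stands apart in SppsKO (0.75 against WT) and cas in PhoKO (0.56 against WT), and the intervals of Imp and chinmo are wide.

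Some neuroblast markers were also higher in PhoKO, beside cas. Against WT, where 4.59% of all tested genes were called higher, 3 of 11 markers rose and 0 fell, and 1 to 2 rose when single libraries were left out. These were insc (Inscuteable, which orients the asymmetric division of neuroblasts; 0.47, SE 0.09, limma adjusted p = 0.00783), wor (a Snail family factor gene; 0.28, SE 0.07, adjusted p = 0.0418) and mira (Miranda, the adaptor that carries fate determinants to the daughter cell; 0.20, SE 0.05, adjusted p = 0.049). The call of insc held without each library in turn and ended without both shallow libraries (adjusted p = 0.0549), whereas those of wor and mira ended when WT 1 was left out, as with 6 and 8 other libraries. Between the mutants 4 of 11 markers were higher in PhoKO and 0 lower, where 7.24% of all tested genes were called higher. When single libraries were left out, 1 to 4 were higher between the mutants. Without both shallow libraries 0 of 11 markers were called against WT, and 2 between the mutants. Against WT the neuroblast factor genes dpn (-0.07, SE 0.07) and ase (0.07, SE 0.09) were not called. The list median against WT was 0.10, beside -0.00 for all tested genes.

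The marker insc differed from WT by a size close to that of cas (0.47 and 0.56 on the log2 scale), and the summed markers by less. The PhoKO libraries of insc lay at 137% to 155% of its WT mean, beside 124% to 174% for cas. Summed over the 11 markers, a sum made up mostly of brat, nerfin-1, numb and pros, the level was 424 to 431 FPKM in WT and 451 to 470 in PhoKO, a PhoKO mean at 107% of WT, where cas was at 151%. Relative to that sum cas was 4.06%, 3.12% and 4.32% in WT and 6.08%, 5.62% and 4.50% in PhoKO. PhoKO 1, a shallow library, was the highest of all 10 libraries for cas and for the markers insc, wor and mira. Glia and eye disc markers moved in the same comparison, with 5 of 10 and 6 of 11 members higher and 0 lower in either list, beside 4.59% of all tested genes called higher. Without both shallow libraries 1 glia and 6 eye disc markers were higher, and without single libraries 3 to 5 and 4 to 6, with 3 glia markers without WT 1, PhoKO 1 or PhoKO 3. Summed glia markers ranged from 396 to 403 FPKM in WT and from 443 to 468 in PhoKO, and eye disc markers from 165 to 182 and from 205 to 213. None of the markers of these lists was at 0 in every library, and their part in the cas difference was not tested.

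**Figure D3:**
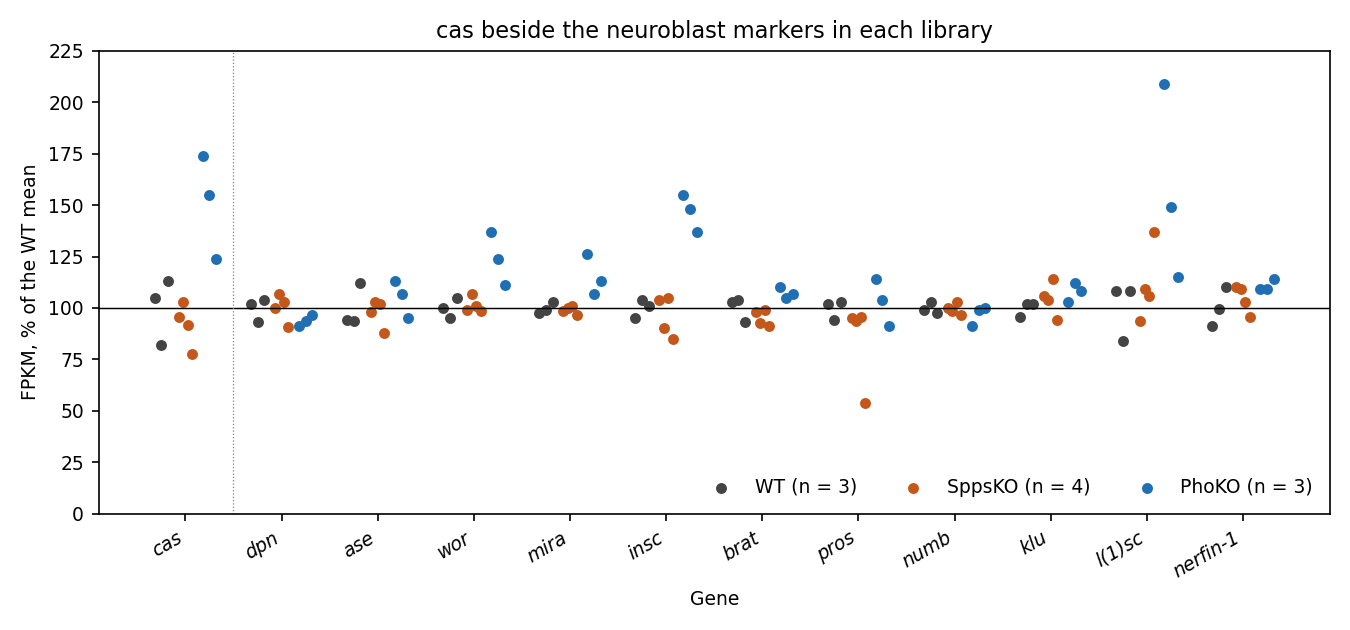
FPKM of cas and of 11 neuroblast markers as a percentage of each gene's WT mean, with 1 point per library. In PhoKO cas lies at 124% to 174%, insc at 137% to 155%, and l(1)sc, which was not called, at 115% to 209%. The called markers wor and mira lie at 111% to 137% and at 107% to 126%. The remaining markers lie between 91.1% and 114%.

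The first genes of the embryonic series, hb and Kr, were weakly expressed, and svp was steady. The zinc finger gene hb did not reach 1 FPKM in any library. It stood at 0.574, 0.472 and 0.518 FPKM in WT, 0.543, 0.434, 0.361 and 0.287 in SppsKO and 0.509, 0.511 and 0.376 in PhoKO. These groups overlapped, with exact two-sided permutation p = 0.171 for SppsKO and p = 0.4 for PhoKO against WT, where the smallest values possible were 0.0571 and 0.1. Kr, the second factor, stood at 1.75, 2.05 and 0.964 FPKM in WT, with the low value in the shallow library WT 3, at 1.75 to 1.93 in SppsKO and at 1.81 to 2.23 in PhoKO. Its log2 differences were 0.15 (95% interval -0.17 to 0.47) in SppsKO and 0.26 (-0.08 to 0.59) in PhoKO, with limma adjusted p = 0.565 and 0.352. The sign of Kr in SppsKO turned without WT 3. The nuclear receptor gene svp ranged from 10.68 to 12.28 FPKM in WT, from 11.09 to 12.15 in SppsKO and from 12.20 to 12.56 in PhoKO. Its differences were 0.04 (95% interval -0.08 to 0.15) and 0.10 (-0.02 to 0.23), with adjusted p = 0.713 and 0.313, and it had the tightest intervals of the 8 genes in these comparisons. For nub in PhoKO the difference was 0.09 (-0.05 to 0.23, adjusted p = 0.456), and for pdm2 0.11 (-0.09 to 0.32, adjusted p = 0.512).

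The larval timers were not called in either mutant against WT, and 1 library set most of their spread. Imp, the early timer, stood at 20.6, 20.1 and 22.5 FPKM in WT and at 19.1, 18.7, 19.3 and 9.30 FPKM in SppsKO. The first 3 SppsKO libraries averaged 19.0 FPKM with an SD of 0.27, and SppsKO 4 was at 48.9% of their mean. Its partner gene chinmo showed the same split, at 13.2, 10.9 and 14.3 FPKM in WT and at 12.3, 12.3, 11.7 and 7.26 FPKM in SppsKO, with SppsKO 4 at 60.1% of the mean of the other 3. Syp, the late timer, stood at 235, 257 and 243 FPKM in WT and at 256, 251, 270 and 214 FPKM in SppsKO, so SppsKO 4 was its lowest library too, at 82.7% of the others. The ratio of Syp to Imp was 23.0 in SppsKO 4, 13.4 to 14.0 in the other SppsKO libraries, 10.8 to 12.8 in WT and 9.61 to 11.2 in PhoKO.

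Other genes, in the nervous system and outside it, were low in SppsKO 4 as well. It was the lowest SppsKO library for 10 of 11 neuroblast markers and 9 of 11 neuron markers. Among glia markers it was lowest for 3 of 10, and among eye disc markers for 2 of 11. It was also lowest for 6 of 8 wing pouch markers, 7 of 7 tested muscle markers and 7 of 9 tested partners of the larval timers. Some of these gaps were small, as in wor (10.33 FPKM against 10.43 in SppsKO 1) and mira (29.46 against 30.09). How often SppsKO 4 was lowest among all tested genes was not counted. Summed neuroblast markers stood at 376 FPKM there and at 422 to 433 in the other SppsKO libraries, and summed neuron markers at 213 and at 248 to 277. The largest fall among the neuroblast markers was in pros, the homeodomain gene of neuroblast daughters, at 35.4 FPKM against 61.8 to 63.0. Summed muscle markers were also low, at 86.9 FPKM against 168 to 175. Relative to the neuroblast sum, Imp was 2.47% in SppsKO 4 and 4.43% to 4.45% in the other SppsKO libraries. Much of that sum in SppsKO 4 was brat (123 FPKM) and numb (70.1 FPKM), so the ratio does not correct for tissue makeup. Whether the makeup of the dissected tissue set the Imp and chinmo values in this library was not tested.

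**Figure D4:**
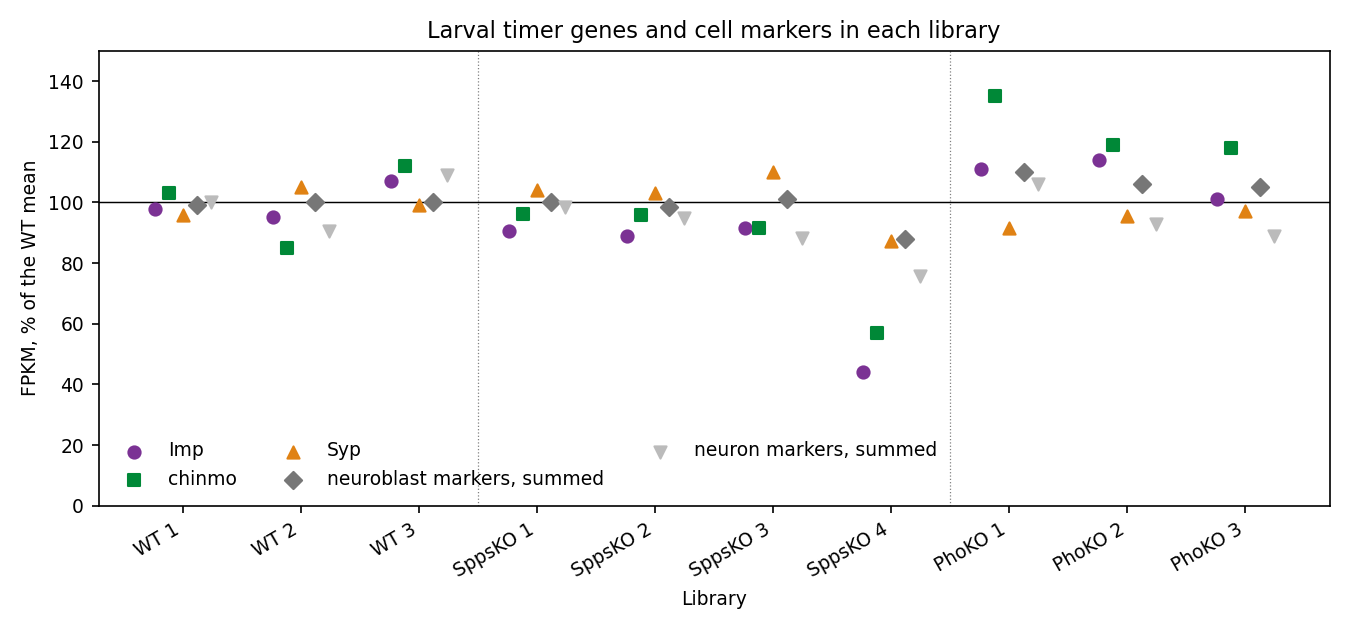
FPKM of Imp, chinmo and Syp and of summed neuroblast and neuron markers, as a percentage of the WT mean, in each of 10 libraries. In SppsKO 4 Imp is at 44.1% and chinmo at 56.8% of the WT mean, below the marker sums at 87.9% and 75.8%, while the other 3 SppsKO libraries lie close to WT. Abundant genes dominate the sums. Taken singly, the neuroblast marker pros is at 53.7% in SppsKO 4 and the remaining neuroblast markers at 84.8% to 137%.

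With all libraries the log2 difference of Imp in SppsKO was -0.38 (95% interval -0.90 to 0.14, limma adjusted p = 0.355), and without SppsKO 4 it was -0.14 (adjusted p = 0.193). That of chinmo was -0.23 (-0.61 to 0.15, adjusted p = 0.445) and -0.07 without SppsKO 4 (adjusted p = 0.717). All SppsKO libraries lay below all WT libraries for Imp, whereas those of chinmo overlapped. SppsKO and WT groups did not overlap in 24.0% of all tested genes, and PhoKO and WT groups in 28.2%. In PhoKO, Imp stood at 23.4, 24.0 and 21.2 FPKM, chinmo at 17.3, 15.2 and 15.1, and Syp at 224, 234 and 238. All PhoKO libraries were above all WT libraries for chinmo, but the difference was not called (0.29, 95% interval -0.11 to 0.70, limma adjusted p = 0.376). Between the mutants, chinmo was higher in PhoKO by 0.53 (SE 0.17, adjusted p = 0.0697) and Imp by 0.49 (SE 0.23, adjusted p = 0.185), neither called. Without SppsKO 4 both differences became smaller and were called, chinmo at 0.36 (adjusted p = 0.0379) and Imp at 0.25 (adjusted p = 0.0234). Syp differed by -0.09 (95% interval -0.25 to 0.07, adjusted p = 0.44).

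Among genes that work with the embryonic series, dan was higher in both mutants and danr in PhoKO. Of 9 tested partners 2 rose and 0 fell in PhoKO, where 4.59% of all tested genes were called higher. The genes dan and danr encode related nuclear proteins that act in neuroblast competence and in antennal and eye development. Summed eye disc markers stood at 164.9 to 182.1 FPKM in WT, 188.5 to 195.9 in SppsKO and 205.4 to 212.5 in PhoKO. Their part in the dan and danr differences was not tested. In PhoKO dan stood at 14.6 ± 0.609 FPKM (SD, n = 3) against 10.1 ± 0.534 in WT (0.49, SE 0.06, limma adjusted p = 0.000647) and danr at 30.4 ± 1.71 against 22.5 ± 1.08 (0.41, SE 0.05, adjusted p = 0.00109). Both calls held without each library in turn. In SppsKO dan rose by 0.35 (SE 0.05, adjusted p = 0.00342), and ap, a LIM homeodomain gene used in neurons and in the dorsal wing, fell by 0.32 (SE 0.07, adjusted p = 0.0181), a call that ended when WT 1 or WT 2 was left out. Between the mutants 5 of the 9 were higher in PhoKO and 0 lower, where 7.24% of all tested genes were called higher. These were danr (0.30), dac (0.17), nab (0.24), kn (0.23) and ap (0.24), of which only danr kept its call without each library in turn. When single libraries were left out 1 to 5 of the partners were higher. List medians were 0.02 in SppsKO, 0.09 in PhoKO and 0.17 between the mutants, beside 0.00, -0.00 and -0.01 for all tested genes.

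Of 15 genes of the optic lobe and intermediate progenitor series, such as ey, slp1, D and tll, limma called 0 in SppsKO and 0 in PhoKO against WT. Between the mutants 1 was called, the zinc finger gene Oaz (0.28 higher in PhoKO, SE 0.08, adjusted p = 0.0355), which was not called without SppsKO 4, among others. Without SppsKO 4 the numbers called higher were 1 and 1 against WT and 0 between the mutants. Under quantile normalization 3 were called higher in SppsKO, where 633 of 9748 tested genes were. List medians against WT were 0.06 in SppsKO and 0.10 in PhoKO.

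Among partners of the larval timers, mainly hormone response and heterochronic genes, 0 of 9 tested were called in SppsKO. In PhoKO 1 rose, the BTB zinc finger gene ab (0.19, SE 0.05, limma adjusted p = 0.0375). Between the mutants ab (0.16) and the ecdysone receptor gene EcR (0.18, SE 0.05, adjusted p = 0.029) were higher in PhoKO. None of these calls held without each library in turn. Of all tested genes 9.66% were called in PhoKO against WT and 14.4% between the mutants. The RNA-binding protein gene lin-28 was below the filter.

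Genes next to the temporal genes were examined because Polycomb domains can span several genes. The distinct tested neighbours, up to 2 on each side of each gene, numbered 31. Of these limma called 3 higher and 2 lower in SppsKO, and 0 higher and 3 lower in PhoKO. Of all genes 8.18% and 9.66% were called, so the PhoKO count is at the background. The SppsKO count is higher, but it includes CG5525 and sesB, whose calls ended in most fits that left out a library. Next to pdm2 lie nub, not called, and CG5525, which rose by 0.22 in SppsKO (SE 0.05, adjusted p = 0.0396), and this call ended in 7 of the 10 fits that left out a library, the one without WT 3 included. Next to cas, plx fell in both mutants, by 0.52 (SE 0.07, adjusted p = 0.00199) and by 0.41 (SE 0.08, adjusted p = 0.00974), and the genes on the other side, CG1239 and CG2100, were not called. Next to hb, Cks85A, which encodes a subunit that binds cyclin-dependent kinases, fell by 0.32 in SppsKO (SE 0.05, adjusted p = 0.00365) and by 0.35 in PhoKO (SE 0.05, adjusted p = 0.0028). Near chinmo, RFeSP, the Rieske iron-sulfur protein of mitochondrial complex III, rose by 0.46 in SppsKO (SE 0.05, adjusted p = 0.000629), and cpb on the other side was not called. Near Kr, CG34038 fell by 0.96 in PhoKO (SE 0.09, adjusted p = 0.00025), and next to Imp, sesB rose by 0.20 in SppsKO (SE 0.05, adjusted p = 0.0409), a call that ended in 9 of those 10 fits, the one without WT 1 included.

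**Figure D5:**
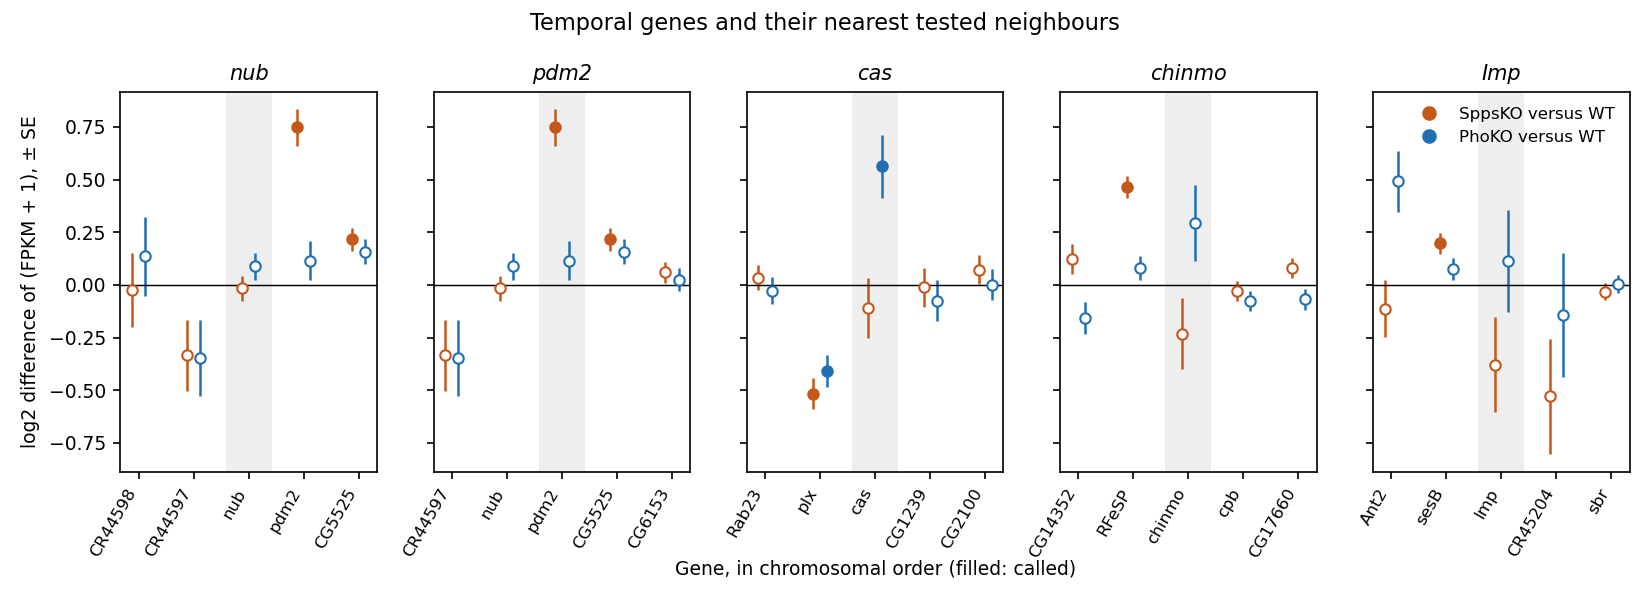
Log2 differences of (FPKM + 1) from WT with standard errors for 5 temporal genes (grey bands) and up to 2 tested genes on each side in chromosomal order; filled points are called at an adjusted p under 0.05. The gene pdm2 stands at 0.75 in SppsKO between nub at -0.02 and CG5525 at 0.22, and cas at 0.56 in PhoKO beside plx at -0.41.

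Some temporal genes overlap other annotated genes, and whether the counting used strand is not given in the sources used here. Overlap was read from a later assembly than that of the files. Syp overlaps CG31195, which averaged 84.1 FPKM, svp overlaps CG17738 at 22.0 FPKM, Imp overlaps the non-coding CR45204 at 2.29 FPKM and Kr overlaps CG9380 at 1.42 FPKM, so fragments may be shared and these values are uncertain to that extent. For pdm2 and nub the overlapping genes CG15485 and Ref2 averaged 0.303 and 0.0561 FPKM, and for cas, chinmo and hb no overlapping gene was listed.

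The genes whose levels ran most closely with each temporal gene over the 10 libraries were taken from all tested genes by Pearson correlation of log2(FPKM + 1), as a description. Libraries of a group share a genotype, and the closest of so many genes is high by selection. For pdm2 these were DppIII, a dipeptidyl peptidase gene (r = 0.98, n = 10), and CG42364 (r = 0.978). For cas they were ktub (r = 0.981) and the homeobox gene NK7.1 (r = 0.98). For Imp they were pros (r = 0.974) and the neuronal cadherin gene CadN (r = 0.971), and for chinmo the sodium pump gene Atpalpha (r = 0.978) and CG34113 (r = 0.975), pairs that include the low library SppsKO 4. For Syp they were ctrip (r = 0.962) and the myosin gene ck (r = 0.938), for nub Dr (r = 0.909) and caps (r = 0.886), for svp SP1029 (r = 0.961) and Gp93 (r = 0.938), and for Kr CG11999 (r = 0.945) and AnxB10 (r = 0.923). No temporal gene was among the closest 2 of another.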

How the data were processed

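The table analysed holds FPKM per gene, normalized across libraries by the authors before deposit and listed by symbol, with 1 column per RNA-Seq library. A strand-keeping mRNA kit was used, per the labels' protocols. The submitters' processing notes name DESeq2, HTSeq, Cuffnorm, Cufflinks and TopHat2 2.1.1, and the builds BDGP5 and dm3; which tool made these values is not given in the sources used here. The 42 ChIP-Seq samples were not analysed here.

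Values were taken as log2(FPKM + 1), which understates changes of low genes. Genes at 1 FPKM or more in at least 3 libraries were tested (9748 of 16502). All 10 libraries entered 1 linear model in limma 3.58.1 (R 4.3.3; eBayes with trend and robust), with Benjamini-Hochberg adjustment over all tested genes in each comparison and calls at an adjusted p under 0.05. Intervals are limma's moderated 95% intervals. The fit was tested on simulated data first. Symbols were matched to the Release 6 plus ISO1 MT assembly (16299 symbols) only for names and neighbouring genes.

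The temporal genes and all lists were chosen with earlier results of these data known. All 9 genes are named; from companion lists, called members in order of adjusted p (at most 5 a list and comparison); from marker lists, called members where a result turns on them; the 2 nearest tested genes on each side; and the 2 most correlated genes. The genes dpn, ase and pros were named after their values were seen. The 22 alternatives changed the pseudocount (0.1 or 5), the filter (none, or a mean of at least 5 FPKM), the scaling (median of ratios, quantile, common sum), the model (array weights, plain eBayes, a replicate block, 2 groups at a time) or the libraries (each left out, or both shallow ones).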

Additional observations from a re-analysis of the deposited data

Results flagged for a closer look

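In SppsKO 4 the level of Imp, at 9.30 FPKM, and that of chinmo, at 7.26 FPKM, lay far from the other 3 SppsKO libraries. The gap to the nearest library was 0.946 of the group's range for Imp and 0.89 for chinmo, above Dixon's 95% critical value for 4 samples, which chance passes in about 1 of 20 groups. Of all tested genes 7.79% passed it in SppsKO, 2.15% with SppsKO 4 low. Among tested genes 266 of 9748 had as low a ratio of SppsKO 4 to the other SppsKO libraries as Imp (0.489), and 358 as low as chinmo (0.601), where the median gene was at 1.01. The other 7 temporal genes did not pass, with svp the closest at 0.767.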

How the results depend on the processing

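The call of pdm2 in SppsKO versus WT and between the mutants held under every one of the 22 alternatives, with log2 differences of 0.50 to 0.87 and of -0.75 to -0.43. In PhoKO versus WT the number of temporal genes called higher was 1, and it was 0 with no filter, with rescaling to a common sum, in the fit of only the compared groups, with plain eBayes, with the replicate number as a block and without both shallow libraries; it was 0 to 1 when single libraries were left out. Between the mutants the number called higher was 1, and it was 3 with array weights (nub, cas and chinmo), 2 without both shallow libraries (nub and cas), 0 with the replicate block, and 0 to 3 without single libraries. Nothing in the labels says that replicate numbers pair libraries. Deviations of 9 same-numbered pairs correlated between -0.377 and 0.11, and 0 of 9 libraries correlated best with their own number. With groups of 3 or 4 libraries these correlations cannot show whether same-numbered libraries shared a collection or preparation. Under the block cas had limma adjusted p = 0.0887 against WT and 0.0749 against SppsKO.

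Signs turned only for differences that were never called. In SppsKO versus WT, Kr was -0.0368 without both shallow libraries and between -0.0368 and 0.28 without single libraries. There Syp was -0.0133 under quantile normalization and between -0.0304 and 0.0802 without single libraries, nub was 0.0025 under quantile normalization and between -0.0702 and 0.0201, and svp was -0.0084 without both shallow libraries and between -0.0084 and 0.0839. Between the mutants Kr was -0.087 under quantile normalization. The remaining values kept their direction. Counts over all genes ranged from 449 to 2263, 471 to 2178 and 753 to 2764 in the 3 comparisons, lowest under the block or the fit of 2 groups and highest with array weights, against 797, 942 and 1400. Quantile normalization gave 633 genes higher and 304 lower in SppsKO, where the deposited scaling gave 382 and 415, 538 and 423 in PhoKO against 447 and 495, and 520 and 854 between the mutants against 706 and 694. No scaling moved the median gene by more than 0.0398. Levels near 1 FPKM, as for hb and Kr, limit what can be detected.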
